A study of Mus musculus with 5 samples.

Results

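Striatal neuron transcription factors are described here across the striata of 5 mice with a Huntington's disease (HD) transgene. The set holds 10 genes, Bcl11b, Foxp1, Foxp2, Rarb, Rxrg, Isl1, Meis2, Ebf1, Six3 and Zfp521, out of 17742 genes named on the array. They were chosen by name for their place in striatal neurons, though with earlier results of these data known. All 10 were found by their current symbol, on 11 probes of 26423. Zfp521 has 2 probes and each other gene has 1.

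The study compared striatal transcripts of mice with mutant HTT that did or did not overexpress the microRNA miR-196a. In the group called HD_miR196a, 3 male FVB mice aged 12 months carried both an HD transgene and a transgene for the precursor of miR-196a, and the labels describe their motor function as improved. In the group called HD, 2 male FVB mice of the same age carried the HD transgene alone, and the labels describe their motor function as weak. The HD transgene, which all 5 mice share, joins GFP to human HTT exon 1 carrying 84 CAG repeats. A human ubiquitin promoter drives both transgenes, so neither is directed to neurons or to the striatum, and mice lacking the HD transgene were not analysed here.

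Medium spiny neurons, the GABA-releasing projection neurons that make up most of the striatum, are the cells most affected in HD. Their identity is set in the embryo and kept in the adult by transcription factors that bind DNA through zinc fingers, forkhead domains, homeodomains or nuclear receptor domains. Bcl11b and Foxp1 serve medium spiny neurons in general, Isl1, Ebf1 and Zfp521 the direct pathway neurons that project to the substantia nigra, and Six3 the indirect pathway neurons that project to the pallidum. Rarb and Rxrg are receptors that pair up to carry the retinoic acid signal, which is strong in striatum. Several of these genes also have other sources in and around the striatum: Bcl11b, Foxp1 and Foxp2 are made in deep layers of cortex, Isl1 in cholinergic interneurons and Ebf1 in pericytes.

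The mature microRNA whose precursor was overexpressed is shown because it is what distinguishes the groups. Capitals mark its seed, bases 2 to 8, the stretch that pairs with target transcripts. The mouse genome encodes this mature sequence at Mir196a-1 (chr11:96265187-96265208, plus strand) and Mir196a-2 (chr15:102973365-102973386, plus strand), both in RefSeq on GRCm38.p6, and the labels do not say which of the precursors the transgene carries.
mmu-miR-196a-5p: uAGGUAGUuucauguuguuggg

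The RefSeq promoter of Rarb is shown because it holds the textbook response element of the retinoid receptors, so that one member of the set is a known target of the dimer that Rarb and Rxrg form. The window runs from 250 bases before to 50 bases after the start of the gene, at chr14:16575427-16575726 on the minus strand of GRCm38.p6, and is written 5′ to 3′ along the gene. Capitals mark the 2 half-sites of a direct repeat with 5 bases between them, which begins 53 bases before the start of the gene.
Rarb promoter: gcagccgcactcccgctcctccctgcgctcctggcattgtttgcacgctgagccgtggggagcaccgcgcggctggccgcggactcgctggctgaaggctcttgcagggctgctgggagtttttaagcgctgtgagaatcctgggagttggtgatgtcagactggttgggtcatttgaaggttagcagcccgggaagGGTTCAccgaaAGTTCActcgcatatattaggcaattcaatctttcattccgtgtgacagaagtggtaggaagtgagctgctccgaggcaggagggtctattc
The search took GGTTCA or AGTTCA for each half-site, on both strands. These are the 2 half-sites of the Rarb element itself, so its hit was fixed by the pattern. Other forms of the half-site were not searched. Such a repeat was found in 13 of 32851 promoters of this length, or 0.0396%. The table held 12 promoters of 8 members, and Rarb's was the only one of these with the repeat. With so narrow a pattern, this does not show that the others lack a retinoid response element. Foxp2 and Zfp521 had no promoter in the table.

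Levels below are log2 of quantile-normalized intensities, and every difference is HD_miR196a minus HD on that scale. Deposited medians ran from 160.0 to 166.3 in HD_miR196a mice and from 184.3 to 185.6 in HD mice, and without scaling the median difference over all probes was -0.20, so changes are given relative to normalized arrays. Olfactory receptor genes, largely silent outside the nose, served as the background: their 544 probes had a median level of 5.03, and 8.27 was the 95th percentile, called the background limit below. All 6 measured markers of medium spiny neurons were above that limit, among them Penk and Drd1. Of the 11 probes of the transcription factors, 7 were above it in every mouse, and the probes of Ebf1, Meis2 and Six3 were below it in every mouse. By mean level over the mice, 59.9% of all probes were at or below this limit. A probe below it cannot be told from an olfactory receptor probe by its level alone. In bulk tissue, fewer cells of a type and less RNA per cell cannot be told apart.

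No transcription factor of the set differed between the groups at an adjusted p under 0.05 (limma, Benjamini-Hochberg over all probes). Over the whole array limma called 0 of 26423 probes, or 0%. At an unadjusted p under 0.05 it found 0 of the 11 probes and 4.16% of all probes. The difference was positive for 4 of the 11 probes and negative for 7, with a median of -0.05, against a median of 0.00 and 49.3% positive over all probes. Without overlap between the groups was 1 probe of 11, that of Six3, or 9.09%, against 20.3% of all probes, of which 9.96% were higher and 10.3% were lower in HD_miR196a mice. Leaving Foxp2 aside, the 95% interval of the difference reached 0.24 to 0.65 to either side of the estimate, with a median of 0.49. The intervals of all 11 probes held 0.

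**Figure D1:**
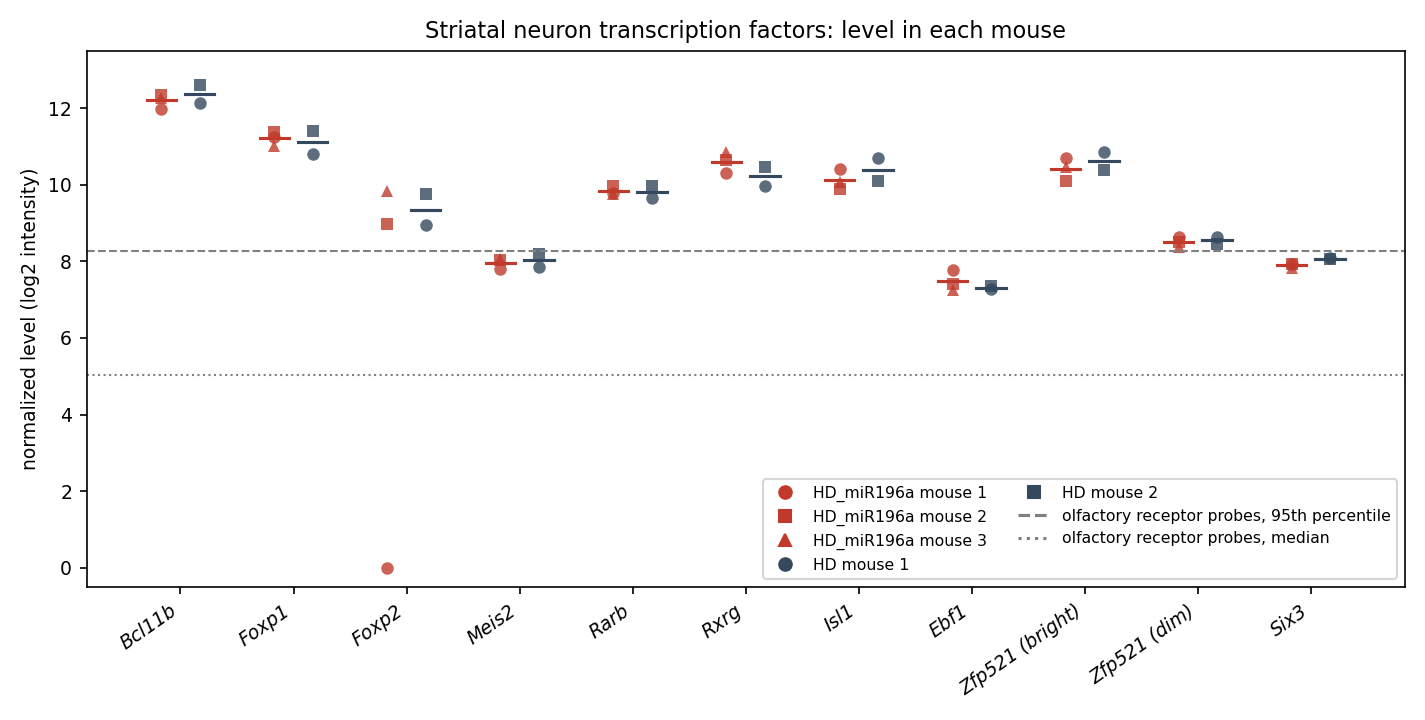
Level of each transcription factor probe (log2 of normalized intensity, vertical axis) in 3 HD_miR196a mice (red, left of each pair) and 2 HD mice (dark blue, right), with horizontal bars for group means and grey lines for the median and 95th percentile of olfactory receptor probes. The groups overlap for every probe except that of Six3, and the Foxp2 probe, which has no mean bar for HD_miR196a mice, is at 0 in HD_miR196a mouse 1.

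Bcl11b, also known as Ctip2, encodes a zinc finger protein that medium spiny neurons need to mature. It measured 11.99, 12.34 and 12.28 in HD_miR196a mice 1 to 3, against 12.13 and 12.60 in HD mice 1 and 2. The highest and the second-lowest value were both in HD mice, so the groups overlapped. HD_miR196a mice averaged 12.20 ± 0.19 (SD, n = 3), and HD mice 12.36 ± 0.33 (SD, n = 2). The difference was -0.16 ± 0.20 (SE), or 0.894-fold, and its 95% interval ran from 0.626-fold to 1.28-fold (limma adjusted p = 0.979). Without HD mouse 2 the difference was 0.073, and without HD mouse 1 it was -0.39, so its sign rests on which HD mouse is kept.

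Foxp1, a forkhead repressor found in both kinds of medium spiny neuron, measured 11.26, 11.38 and 11.01 in HD_miR196a mice, against 10.81 and 11.40 in HD mice. Here the lowest and the highest value were both in HD mice, and every HD_miR196a mouse lay between them. The difference was 0.11 ± 0.23 (SE), with a 95% interval from -0.48 to 0.70 (limma adjusted p = 0.992). It was 0.40 without HD mouse 2, and -0.21 when mouse 1 of each group was left out.

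Foxp2, the forkhead relative of Foxp1 known from inherited speech disorders in humans, was at background in a single mouse. Its probe measured 0.00, 8.98 and 9.84 in HD_miR196a mice 1 to 3, against 8.94 and 9.76 in HD mice 1 and 2. The deposited intensity in HD_miR196a mouse 1 was -0.50, below the floor of 1 set before the log transformation, while the deposited values in the other mice were 480, 895, 534 and 954. The other 2 HD_miR196a mice lay at the levels of the 2 HD mice. The difference over all 5 mice, -3.08 ± 3.24 (SE), therefore takes its size from that value, and limma gave an adjusted p of 0.979. Without HD_miR196a mouse 1 the difference was 0.06 ± 0.45 (SE), with a 95% interval from -1.23 to 1.35. On the whole array 8 probes were at or under the olfactory receptor median in exactly 1 mouse and above the background limit in the other 4. That of Foxp2 was the only one of these low in HD_miR196a mouse 1. Of the other 7, 5 were low in HD mouse 2 and 2 in HD mouse 1, among them Slc1a3, an astrocyte glutamate transporter gene. Whether such a value is a fault of the array or a true absence was not tested. Foxp1 in the same mouse was at 11.26, within the range of the other mice.

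**Figure D2:**
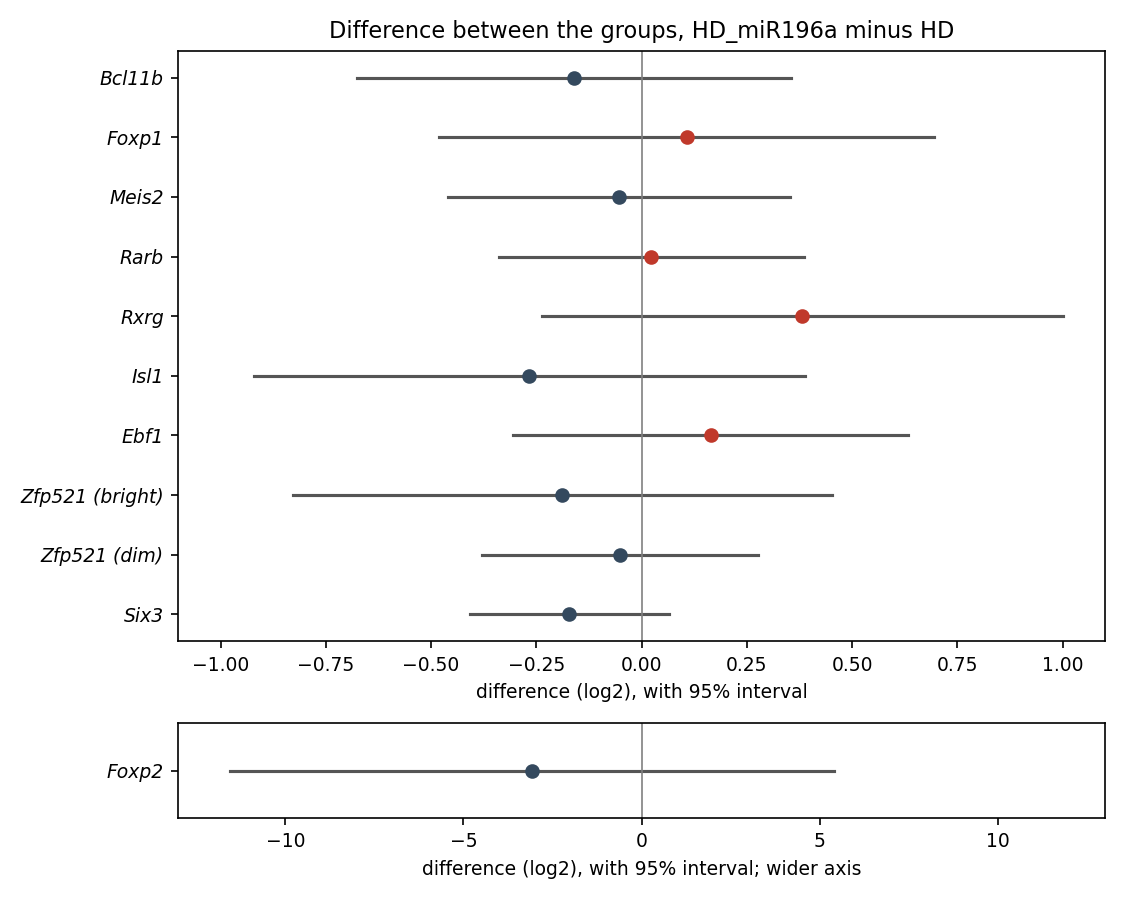
Difference of each probe between HD_miR196a and HD mice on the log2 scale (points) with its 95% interval from limma (lines), red for positive and dark blue for negative estimates. All intervals cross 0, and that of Foxp2 is drawn on a wider axis because 1 of its HD_miR196a values is at the floor.

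The retinoid receptors gave the largest positive estimate of the set and one of the smallest. Rxrg, the retinoid X receptor that pairs with Rarb, measured 10.30, 10.65 and 10.86 in HD_miR196a mice, against 9.98 and 10.46 in HD mice. The 2 highest values were in HD_miR196a mice and the lowest in an HD mouse, but HD mouse 2 lay above HD_miR196a mouse 1. The difference was 0.38 ± 0.24 (SE), or 1.30-fold, with a 95% interval from 0.849-fold to 2.00-fold (limma adjusted p = 0.979). It was positive in all 17 alternatives, several of which cannot change the estimate. Its lowest value, 0.14, came when HD mouse 1 was left out and its highest, 0.62, when HD mouse 2 was.

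Rarb, the receptor whose promoter is printed above, measured 9.79, 9.96 and 9.75 in HD_miR196a mice, against 9.66 and 9.96 in HD mice. The highest value of each group was 9.96. The difference was 0.02 ± 0.14 (SE), with a 95% interval from 0.790-fold to 1.31-fold (limma adjusted p = 0.998). Its sign changed in 5 of 17 alternatives. The other genes of the retinoid pathway, enzymes, carrier proteins and cofactors, were 11 measured of 15 listed. Of these 0 passed the test in either direction, 6 were higher and 4 lower in HD_miR196a mice, and Dhrs3 was at the floor in all 5 mice. Aldh1a1, which makes retinoic acid, measured 9.13, 9.59 and 9.15 in HD_miR196a mice, against 8.95 and 9.03 in HD mice, without overlap (limma adjusted p = 0.979). The retinol transporter gene Stra6 and the synthesis gene Aldh1a2, the next by p-value, differed by 0.17 ± 0.13 and 0.28 ± 0.24 (SE) at levels below the background limit. Aldh1a1 was not alone in separating the mice. Crabp1 measured 11.56, 11.17 and 11.19 in HD_miR196a mice, against 11.16 and 11.13 in HD mice. A full separation was thus seen in 18.2% of the 11 measured pathway genes, while its share among all probes was 20.3%.

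Isl1 encodes a LIM homeodomain protein of direct pathway neurons and of cholinergic interneurons. It measured 10.42, 9.90 and 10.08 in HD_miR196a mice, against 10.69 and 10.10 in HD mice. The highest value was in HD mouse 1, the next in HD_miR196a mouse 1, and the remaining 3 mice lay between 9.90 and 10.10. The difference was -0.27 ± 0.25 (SE), with a 95% interval from 0.528-fold to 1.31-fold (limma adjusted p = 0.979). Without HD mouse 1 it was 0.03, and without HD mouse 2 it was -0.56.

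Six3, a homeodomain factor that directs precursors to the indirect pathway fate, was the one member whose groups did not overlap. It measured 7.94, 7.93 and 7.84 in HD_miR196a mice, against 8.09 and 8.06 in HD mice. All 3 HD_miR196a mice lay below both HD mice, and the values within each group were close. The difference was -0.17 ± 0.09 (SE), or 0.888-fold, with a 95% interval from 0.753-fold to 1.05-fold (limma adjusted p = 0.979). It was negative in all 17 alternatives, several of which cannot change the estimate, from -0.35 without scaling to -0.14 without HD_miR196a mouse 3. All 5 values were below the background limit.

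Meis2, a homeodomain cofactor of the lateral ganglionic eminence, where medium spiny neurons are born, measured 7.81, 8.03 and 8.07 in HD_miR196a mice, against 7.85 and 8.19 in HD mice. Mouse 1 was the lowest of its group in both. The difference was -0.05 ± 0.16 (SE), with a 95% interval from -0.46 to 0.35 (limma adjusted p = 0.994).

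Ebf1, a helix-loop-helix factor of direct pathway neurons, measured 7.77, 7.41 and 7.26 in HD_miR196a mice, against 7.27 and 7.36 in HD mice. HD_miR196a mouse 1 stood above the other 4 mice, which lay within 7.26 to 7.41. The difference was 0.16 ± 0.18 (SE), and it was -0.02 when mouse 1 of each group was left out. Pericyte and mural cell markers were 6 measured of 6 listed. Their summed intensity was 6140, 6614 and 6982 in HD_miR196a mice, against 6076 and 5993 in HD mice. Their mean level was 8.69, 8.89 and 8.75 in HD_miR196a mice, against 8.42 and 8.79 in HD mice, with overlap. The part of these cells in the Ebf1 values was not tested.

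Zfp521, a zinc finger factor that marks direct pathway neurons with Ebf1, has 2 probes, and both gave a negative estimate. The brighter probe measured 10.70, 10.09 and 10.47 in HD_miR196a mice, against 10.85 and 10.38 in HD mice, with a difference of -0.19 ± 0.24 (SE). The dimmer probe measured 8.63, 8.49 and 8.38 in HD_miR196a mice, against 8.65 and 8.46 in HD mice, with a difference of -0.05 ± 0.13 (SE). On both probes HD mouse 1 was the highest of all mice and HD_miR196a mouse 1 the next. They disagreed on the lowest mouse, which was HD_miR196a mouse 2 on the brighter probe and HD_miR196a mouse 3 on the dimmer one. Without HD mouse 1 the differences became 0.05 and 0.04.

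The 2 HD mice differed from each other at these genes by more than the groups did for 8 of the 11 probes. The same count was not taken over all probes. The gap between HD mouse 1 and HD mouse 2 had a median size of 0.47 over the 11 probes, against 0.18 over all probes, and was above that array-wide median for 9 of them. Between the groups the median size was 0.16 over the 11 probes, against 0.12 over all probes. A difference between group means averages over mice, so where groups do not differ it tends to be smaller than one between single mice. Within HD_miR196a the median size over the 11 probes was 0.35 for mice 1 and 2. It was 0.26 for mice 1 and 3 and 0.18 for mice 2 and 3. Between mice of different groups the median over the 11 probes ran from 0.12, for HD_miR196a mouse 3 and HD mouse 2, to 0.32, for HD_miR196a mouse 1 and HD mouse 2. It was 0.15 for HD_miR196a mouse 1 and HD mouse 1 and 0.16 for HD_miR196a mouse 2 and HD mouse 2. The half-width of the limma interval had a median of 0.51 over the 11 probes, Foxp2 included, against 0.39 over all probes. All probes were fitted on the same mice with the same degrees of freedom, so the number of mice enters both medians alike. These medians differ through the spread within the groups, as limma moderates it.

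**Figure D3:**
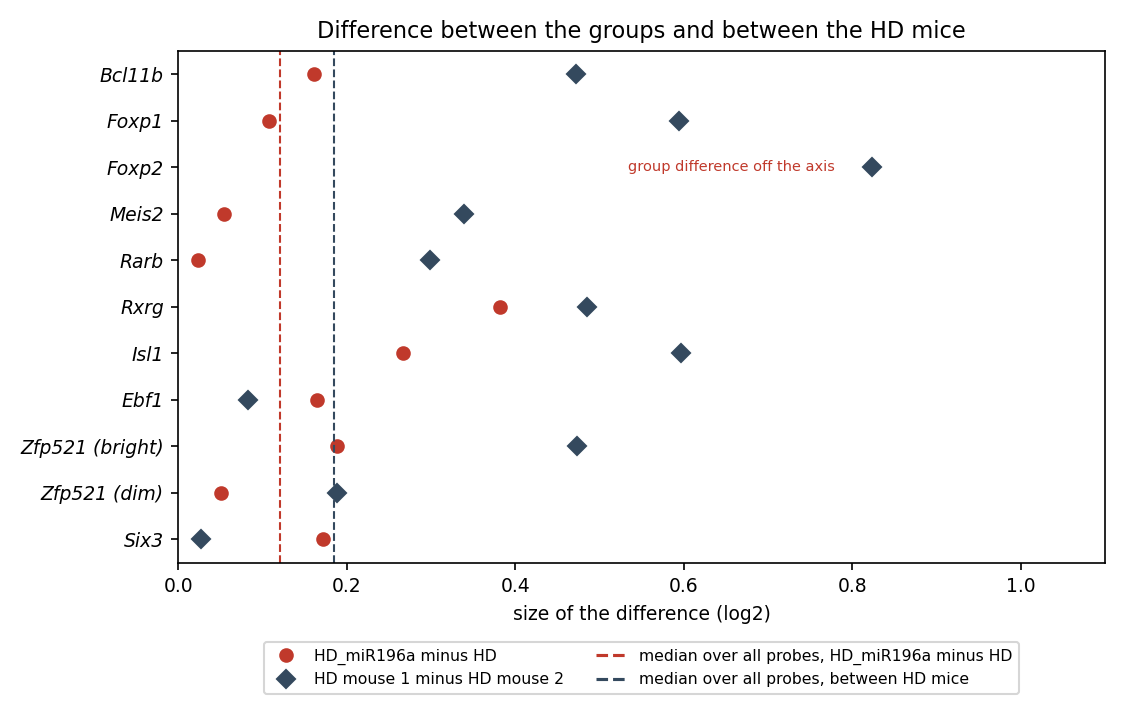
Size of the difference between the groups (red circles) and between the 2 HD mice (dark blue diamonds) for each probe, on the log2 scale, with dashed lines for the medians over all probes, 0.12 and 0.18. The gap between the HD mice is the larger for every probe except those of Ebf1, Six3 and Foxp2, whose group difference lies beyond the axis.

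Mouse 1 of each group stood on the same side of its group mates for most of the set. It was the lowest of its group in both groups for Bcl11b, Foxp2, Meis2 and Rxrg, 4 of 11 probes or 36.4%, against 21.4% of all probes. It was the highest in both for Isl1, Six3 and both probes of Zfp521, another 4 of 11, against 23.7% of all probes. For Foxp2 the value at the floor puts it there in HD_miR196a mice. These counts describe the mice and were not tested.

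Of 8 marker lists for other cells, 3 divided along the same mice: cortical neurons, cholinergic interneurons and oligodendrocytes. Astrocyte, microglia, endothelium, pericyte and other interneuron markers did not, with at most 1 marker of each list lowest, and at most 1 highest, in mouse 1 of both groups. Of 11 measured cortical neuron markers, all but Lamp5, 10 in number, were lowest in mouse 1 of both groups, and their mean level was 8.52, 10.09 and 9.83 in HD_miR196a mice 1 to 3, against 8.71 and 10.29 in HD mice 1 and 2. Their summed intensity was 12575, 33988 and 26111 in HD_miR196a mice, against 11690 and 36197 in HD mice, and no marker was at or under the olfactory receptor median in any mouse. All 5 measured cholinergic interneuron markers were highest in mouse 1 of both groups, with summed intensities of 3407, 1730 and 2676 in HD_miR196a mice, against 3376 and 1447 in HD mice. All 5 measured oligodendrocyte markers were likewise highest in mouse 1 of both groups, with summed intensities of 51837, 43394 and 40299 in HD_miR196a mice, against 41091 and 33437 in HD mice. Oligodendrocyte markers were also higher in HD_miR196a mice for 5 of 5, with a median difference of 0.28, though without overlap only for Mbp. All 6 medium spiny neuron markers were higher in every HD_miR196a mouse than in either HD mouse, which held for 9.96% of all probes, with mean levels of 12.99, 12.98 and 12.77 in HD_miR196a mice, against 12.35 and 12.57 in HD mice. Lhx8, a homeodomain factor of cholinergic neurons, measured 10.19, 8.73 and 9.47 in HD_miR196a mice, against 10.17 and 8.02 in HD mice. Isl1 was highest in the same 2 mice as the cholinergic markers. Of the 3 members named above as made in cortex, Bcl11b was lowest of its group in mouse 1 of both groups, Foxp2 was so with its value at the floor, and Foxp1 was not: its 11.26 in HD_miR196a mouse 1 lay above the 11.01 in HD_miR196a mouse 3. Meis2 and Rxrg, chosen here for their values, were also lowest in mouse 1 of both groups. The part of these cells in the values of the transcription factors was not tested. With mouse 1 of each group left out, which keeps 1 HD mouse and assumes that it varies like the others, 1 of 11 probes was higher, that of Rxrg (0.29 ± 0.17, SE), and 10 were lower in HD_miR196a mice. Their median was -0.11, Bcl11b was at -0.29 ± 0.13 (SE), and the smallest limma adjusted p was 0.935.

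**Figure D4:**
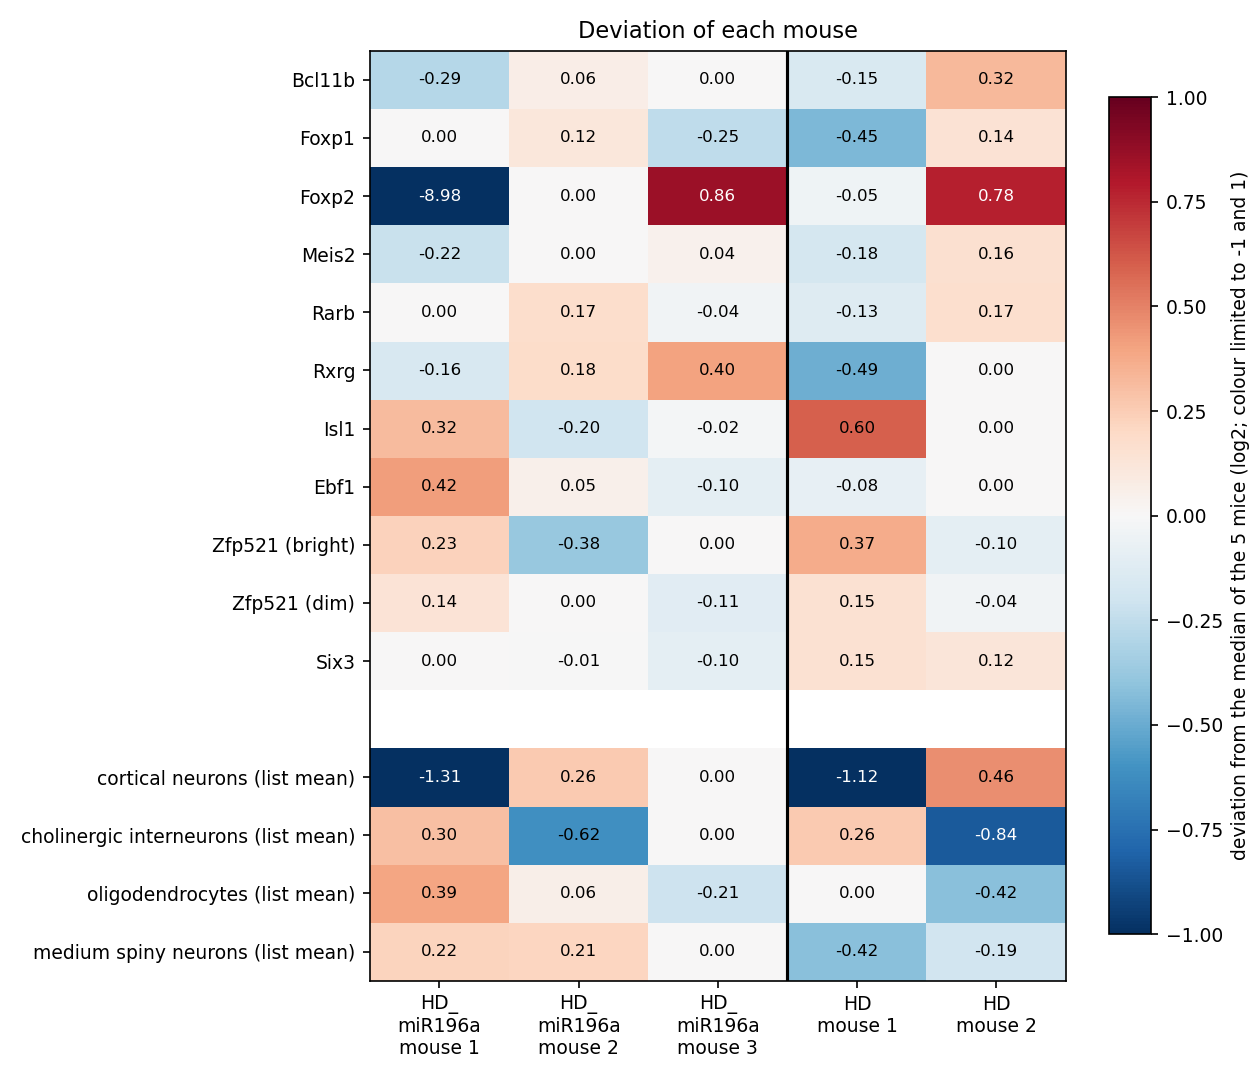
Deviation of each mouse (columns, HD_miR196a left of the line and HD right) from the median of the 5 mice, on the log2 scale, for the transcription factor probes and, below the gap, for the mean of 4 marker lists. HD_miR196a mouse 1 and HD mouse 1 are blue for Bcl11b, Meis2, Rxrg and cortical neurons and red for Isl1, Zfp521 and cholinergic interneurons, while medium spiny neuron markers are lower in both HD mice than in any HD_miR196a mouse.

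Relatives and dimer partners of the set, such as Bcl11a, Foxp4, Rxra and Meis1, were 19 measured of 20 listed. Of these 0 passed the test in either direction, 9 were higher and 10 lower in HD_miR196a mice, with a median difference of -0.02. Against 20.3% of all probes, the groups did not overlap for 2 of them, or 10.5%. Those were Foxp3, best known from regulatory T cells, at 7.63, 7.52 and 7.54 in HD_miR196a mice against 7.48 and 7.29 in HD mice, all below the background limit, and Ebf4, with a difference of -0.27 ± 0.24 (SE). Ebf2, the third by p-value, differed by 0.17 ± 0.17 (SE).

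Other regulators of striatal development were 17 measured of 20 listed, of which 0 passed, 7 were higher and 10 lower, with a median of -0.08. The groups overlapped for every one, while 20.3% of all probes were without overlap. The homeobox genes Dlx5 and Dlx2, which drive the GABA-releasing fate in the ganglionic eminences, differed by -0.16 ± 0.11 and -0.19 ± 0.13 (SE). Zfp503, also called Nolz1, differed by -0.14 ± 0.14 (SE) at a level below the background limit.

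Genes that carry out the work of medium spiny neurons gave another count. Of 23 measured, 0 passed the test over all probes in either direction, while 21 were higher and 2 lower in HD_miR196a mice, with a median of 0.30. The groups did not overlap for 11 of them, or 47.8%, against 20.3% of all probes, with 10 higher and 1 lower. An unadjusted p under 0.05 was found for 8, against 4.16% of all probes. The 6 medium spiny neuron markers above belong to this list and are among both the 10 and the 8, so they are no separate evidence. Rasgrp2, a calcium-dependent activator of Rap GTPases, measured 10.46, 10.40 and 10.19 in HD_miR196a mice, against 9.37 and 9.81 in HD mice (limma adjusted p = 0.979). Rgs9 and Pde1b, a regulator of G-protein signalling and a phosphodiesterase, differed by 0.54 ± 0.14 and 0.45 ± 0.12 (SE). The Drd2 probe, 1 of the 2 lower, was at or under the olfactory receptor median in all 5 mice. Some of the 21 counted as higher were near 0, such as Tac1 at 0.01 ± 0.16 and Gnal at 0.003 ± 0.14 (SE). Over the 10 transcription factors, by the brightest probe of each, 4 were higher and 6 lower, with a median of -0.11 and 1 without overlap. The difference between these lists was not tested.

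**Figure D5:**
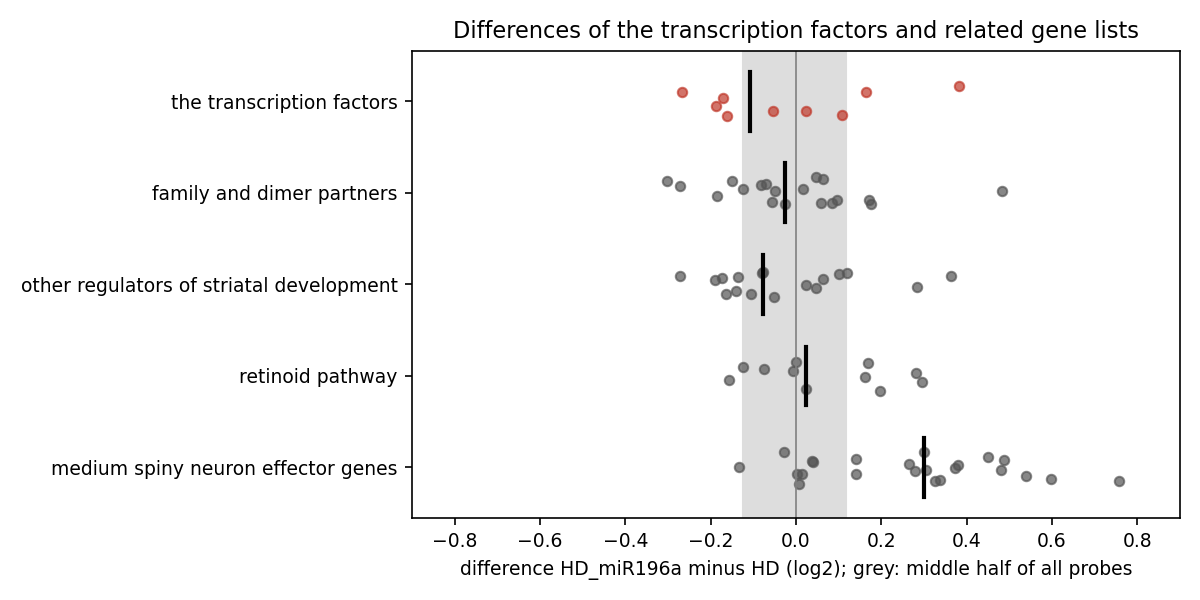
Difference between HD_miR196a and HD mice on the log2 scale for each gene (points, brightest probe) of the transcription factors and 4 related lists, with list medians (black bars) and the range between the quartiles of all probes (grey band); the vertical scatter carries no meaning and Foxp2 lies beyond the axis. Medium spiny neuron effector genes have their median at 0.30, outside the band, and the transcription factors at -0.11, inside it.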

How the data were processed

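RNA of each striatum was amplified and labelled with Cy5 for a 1-colour array, and the 2 technical repeats of a mouse were combined by the authors, per the labels. The deposited values are linear intensities, slightly below 0 for some probes; the sources used here do not name the scanner, its software or any scaling. The mouse is the replicate, and the number of arrays limits the precision. Groups came from the sample titles.

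Intensities were quantile-normalized, floored at 1 and log2-transformed, and all 26423 probes were fitted in R 4.3.3 with lmFit and eBayes of limma 3.58.1 (two-sided, 95% intervals, with degrees of freedom of 3 residual and 1.75 prior). Symbols came from the platform table: 20377 probes had 1 and 6046 had none. Of these, 18213 matched RefSeq names (GRCm38.p6) directly, 2126 through a synonym and 38 not at all. For gene lists the brightest probe of each gene was used.

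The text names all members and the 3 genes of smallest p in each related list. Slc1a3, Lhx8, Dhrs3, Drd2, Crabp1 and other genes given as examples were picked after their values were seen. The members, lists, tests and alternatives were chosen with earlier results of these data known.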

Additional observations from a re-analysis of the deposited data

How the results depend on the processing

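No probe of the transcription factors was called under any of the 17 alternatives; the smallest adjusted p was 0.362, for Six3 without scaling. Of 183 values of single probes under alternatives, 163 kept their sign and 20 changed it, none with a call. Many of these could not change. Choosing probes by level or brightness, trend and robust settings, and averaging over a gene with 1 probe leave the estimate as it was. Flooring at the background median could move only Foxp2, and the 2 replicate blocks gave the same values. The count of kept signs is therefore no measure of robustness. Only Rxrg and Six3 kept their sign throughout. The median of the 11 probes, -0.05, became -0.25 without scaling, with 1 probe higher, where the median of all probes was -0.20. With single mice left out it was lowest, -0.13, without HD mouse 1 and highest, 0.073, without HD mouse 2. Leaving out mouse 1 of each group gave 1 probe higher. Over the whole array the count of 0 called probes became 2 when values were floored at the background median, 1 among the 19817 probes above the lower quartile of mean level, 3 with trend and robust settings, and 0 to 3 with single mice left out. The cause was not tested. A fit with 1 HD mouse assumes that it varies like the other group.

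Mice 1 and 2 occur in both groups, and the labels do not say that equal numbers pair mice. Deviations from group means correlated at 0.236 between both mice 1 and at 0.17 between both mice 2, and with 2 HD mice these are not independent. With the mouse number as a replicate block, limma called 0 probes whether 4 or 5 mice were used (2020 had an unadjusted p under 0.05), 5 of 11 probes were higher and their median was -0.11. Low signal limits Ebf1, Meis2 and Six3.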
